A study of Ziziphus jujuba var. spinosa with 24 samples.

Results

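RCA2 is a rubisco activase gene of the jujube genome, listed as LOC107413423, and it was taken as a single gene, 1 of the 32527 in the count table, because its row is present in that table and in all 8 tables of length-scaled values. Its level was followed in the leaves of sour jujube (Ziziphus jujuba Mill. var. spinosa), the thorny wild form related to cultivated jujube. The name comes from the RefSeq gene table of the ASM3175591v1 assembly, which also names a paralogue, RCA1 (LOC107411034). The plants compared were a diploid labelled wild type and an autotetraploid, which carries the same chromosome set doubled. Both had been kept in tissue culture for many generations, were cultured for 30 days and rooted for 45 days. They then grew in dilute nutrient solution, for 3 days in the dark and 7 days in the light. The growth conditions given are 16 h of light and 8 h of dark at 25 °C. Drought was imposed with PEG6000, a polymer that holds water back from the roots, raised in daily steps to 20%. The 8 groups were control, 6 h, 12 h and 48 h of drought in each ploidy, with 3 libraries in each. The labels do not say that the libraries of a group came from separate plants, so each p-value rests on library-to-library spread, which may be technical. They also do not give the hour of day of each harvest, or how the hours of drought relate to the daily steps, so the drought times and the hour of day cannot be told apart.

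Rubisco, the enzyme that fixes carbon dioxide in photosynthesis, is blocked when sugar phosphates bind its active site. Rubisco activase is a chloroplast ATPase that pulls these inhibitors off and so keeps rubisco working, and it is known for its sensitivity to heat. In tomato and Arabidopsis its transcripts are known to follow a daily rhythm. Many plants make a longer and a shorter activase protein, from different genes or by alternative splicing, and the longer one responds to the redox state of the chloroplast.

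RCA2 was among the most abundant transcripts of these leaves. Library totals ran from 30750412 to 50404402 counts, and RCA2 held between 53370 and 642071 counts in a library, or 0.172% to 1.66% of the total, so counting error is small beside the differences between libraries. By mean FPKM (fragments scaled for transcript length and library size) over the 24 libraries it ranked 3rd of 27901 genes with a value, and RCA1 ranked 26th. RCA2 ranked 3rd in every diploid control library and 1st or 2nd in the autotetraploid controls. It was still between rank 5 and rank 11 in the diploid at 12 h and between rank 14 and rank 32 in the autotetraploid at 12 h. The transcripts of a leaf extract were measured in bulk and from equal RNA amounts, so fewer cells that express the gene and less RNA per cell cannot be told apart.

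The 24 values of RCA2 fell into a high and a low set. Levels are given as CPM, counts divided by the library total after edgeR's TMM scaling and multiplied by 1e6. The 6 libraries taken at 12 h lay between 1603 and 3666 CPM, and the other 18 lay between 8067 and 17452 CPM. How many of the genes tested split in this way was not counted. The gap between the sets was 2.2-fold, and the highest library exceeded the lowest 10.9-fold. Ordered by mean, the levels ran from diploid 6 h through autotetraploid 48 h, autotetraploid 6 h, diploid 48 h, diploid control and autotetraploid control to diploid 12 h and autotetraploid 12 h. Each of the first 6 groups overlapped its neighbour in this order, while autotetraploid control and diploid 12 h, and then diploid 12 h and autotetraploid 12 h, did not overlap. On the FPKM scale autotetraploid 6 h and 48 h changed places, and the rest of the order was the same.

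**Figure D1:**
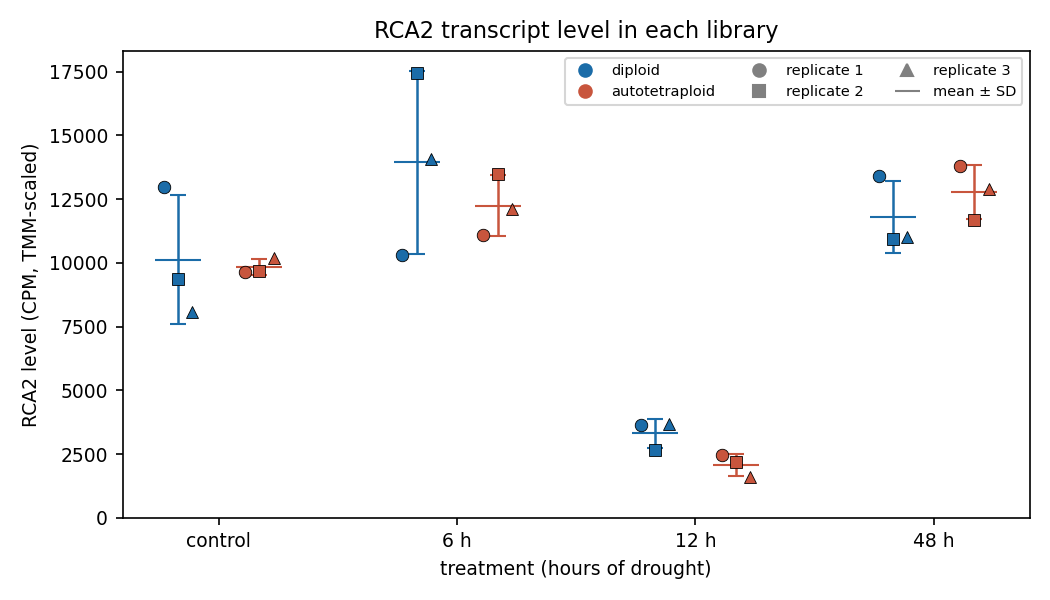
RCA2 level in CPM (vertical axis, from 0) for each of the 24 libraries by treatment and ploidy, with the mean ± SD of the 3 libraries of a group. The 6 libraries at 12 h lie between 1603 and 3666 CPM, all below the other 18, which begin at 8067 CPM.

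The first comparison was between leaves at 6 h of drought and untreated leaves. The diploid controls stood at 12972, 9361 and 8067 CPM and the diploid 6 h libraries at 10293, 17452 and 14094 CPM. Replicate 1 was the highest control and the lowest 6 h library, so the groups overlapped. The autotetraploid controls stood close together at 9636, 9671 and 10190 CPM, and the 6 h libraries at 11103, 13504 and 12132 CPM were all above them, an order without overlap that 21.5% of all tested genes showed in this comparison. Within a ploidy the log2 fold changes of 0.46 ± 0.20 (SE, adjusted p = 0.115) in the diploid and 0.32 ± 0.20 (SE, adjusted p = 0.285) in the autotetraploid did not pass an adjusted p of 0.05, the threshold used throughout; 11.4% and 12.7% of the genes tested were called higher there. The mean change of both ploidies, 0.39 ± 0.14 (SE, 95% confidence interval 0.091 to 0.69), passed in edgeR's quasi-likelihood test with an adjusted p of 0.0391, where 18.6% of the genes tested were called higher. This corresponds to a 1.31-fold higher level. All 6 libraries at 6 h lay above the control mean of their ploidy, diploid replicate 1 only narrowly, at 10293 against 10133 CPM. The share of all genes with this order was not counted, and it draws on the same values as the test. The call of the mean change was weak. Dropping 1 of the 12 libraries involved at a time ended it in 9 cases, and so did a model of those 12 libraries alone (adjusted p = 0.0655). Over all 12 fits with 1 library dropped, the adjusted p ran from 0.0109 to 0.123. The 3 fits that kept it were without diploid control replicate 1, diploid 6 h replicate 1 or autotetraploid 6 h replicate 1. In the diploid alone, the change passed without diploid control replicate 1 (0.67, adjusted p = 0.033) or without diploid 6 h replicate 1 (0.64, adjusted p = 0.0356).

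At 12 h RCA2 was far below every other treatment in both ploidies. The diploid libraries stood at 3629, 2650 and 3666 CPM and the autotetraploid ones at 2453, 2193 and 1603 CPM, and neither group overlapped its controls, an order found in 22.2% and 21.2% of all genes tested. RCA2 transcripts made up 0.352% ± 0.052 of all counts in the diploid and 0.228% ± 0.051 in the autotetraploid (SD, n = 3), against 0.984% ± 0.222 and 0.969% ± 0.023 in the controls (SD, n = 3). The mean change of both ploidies was a 3.8-fold fall, a log2 fold change of −1.93 ± 0.15 (SE, 95% confidence interval −2.23 to −1.62, adjusted p = 4.11e-09). Of all genes tested, 22% were called lower in this comparison, and 4.01% had a log2 fold change below that of RCA2. In the diploid alone 15.5% of genes were called lower, and in the autotetraploid alone 15.6%, and RCA2 was among them in both, with log2 fold changes of −1.61 ± 0.21 (SE, adjusted p = 7.48e-06) and −2.24 ± 0.21 (SE, adjusted p = 1.56e-07).

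Set against 6 h in place of the control, the fall was steeper. The added part is the change from control to 6 h, which did not pass in either ploidy alone. RCA2 was 4.21-fold lower in the diploid (−2.07 ± 0.21 on the log2 scale, SE, adjusted p = 1.44e-06) and 5.88-fold lower in the autotetraploid (−2.56 ± 0.21, SE, adjusted p = 1.51e-07). In the same comparisons 5.5% and 5.13% of the genes tested were called lower, and 1.82% and 1.26% had a lower log2 fold change than RCA2. The mean of both ploidies was −2.31 ± 0.15 (SE, adjusted p = 1.58e-09), with 9.67% of genes called lower.

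By 48 h the level was back in the high set. The diploid libraries stood at 13425, 10950 and 11006 CPM and the autotetraploid ones at 13810, 11698 and 12882 CPM. From 12 h to 48 h RCA2 rose 3.56-fold in the diploid (log2 fold change 1.83 ± 0.21, SE, adjusted p = 1.72e-06) and 6.14-fold in the autotetraploid (2.62 ± 0.21, SE, adjusted p = 2.02e-08), where 13.6% and 15.1% of genes were called higher. The mean rise of both ploidies was 4.68-fold (2.23 ± 0.15, SE, adjusted p = 5.68e-10; 19.8% called higher). Against the controls, the 3 autotetraploid libraries at 48 h were all above the 3 controls, as were those of 16.5% of the genes, while the diploid groups overlapped. Neither change passed, with log2 fold changes of 0.38 ± 0.20 (SE, adjusted p = 0.228) and 0.22 ± 0.20 (SE, adjusted p = 0.618), in comparisons that called 6.08% and 1.1% of genes higher. The diploid value rested on single libraries: it was 0.44 without control replicate 1, 0.079 without control replicate 3 and 0.12 without 48 h replicate 1. The genes called there in either direction went from 520 to 20 without control replicate 2 and to 841 without control replicate 1. The mean of both, 0.30 ± 0.14 (SE, 95% confidence interval 0.0018 to 0.60, adjusted p = 0.144; 10.3% of genes called higher), did not pass either. Without diploid control replicate 1 that mean was 0.42 and passed (adjusted p = 0.0369).

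**Figure D2:**
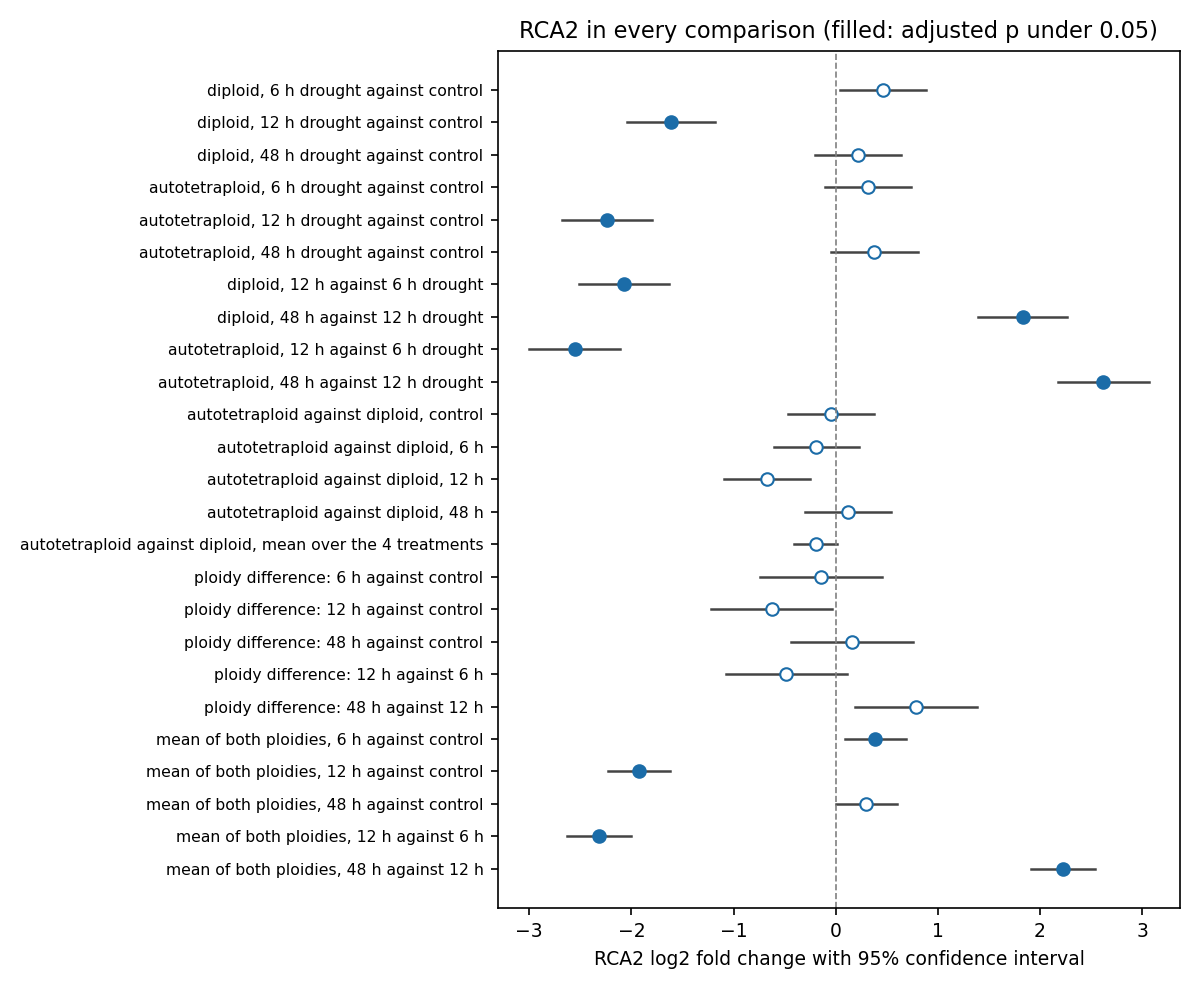
Log2 fold change of RCA2 (horizontal axis) in each of 25 comparisons, with its 95% confidence interval as a line; filled points have an adjusted p under 0.05 in edgeR's quasi-likelihood test. Of the 10 comparisons that pass, 9 set 12 h against another time and the other is the mean of both ploidies at 6 h against the controls, at 0.39.

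The ploidies were then compared at the same treatment. RCA2 did not pass in any treatment, and the largest difference was at 12 h, where all 3 autotetraploid libraries, at most 2453 CPM, lay below all 3 diploid ones, at least 2650 CPM. Such an order was found in 5.06% of the genes tested. The log2 difference of autotetraploid minus diploid was −0.67 ± 0.20 (SE, 95% confidence interval −1.09 to −0.25), a 1.59-fold lower level with an unadjusted p of 0.0037 and an adjusted p of 0.707, in a comparison that called 0.0194% of genes. Replicate 3 of the autotetraploid at 12 h was the lowest library of all, and without it the difference was −0.51 (adjusted p = 0.835). In the controls, at 6 h and at 48 h the differences were −0.044, −0.19 and 0.12, each ± 0.20 (SE), with 95% confidence intervals of −0.46 to 0.38, −0.61 to 0.23 and −0.30 to 0.54. In the controls and at 6 h edgeR called 0.0% of genes at the adjusted threshold, with 2230 and 1919 genes at an unadjusted p under 0.05, while DESeq2 called 175 and 115, and limma on FPKM 3 and 0; at 48 h edgeR called 0.139%. Averaged over the 4 treatments, RCA2 in the autotetraploid differed from the diploid by −0.20 ± 0.10 on the log2 scale (SE, 95% confidence interval −0.41 to 0.015, adjusted p = 0.402), where 0.403% of genes were called. Those 104 genes became 17 without autotetraploid control replicate 2, 283 without diploid control replicate 3 and 882 in DESeq2, while the RCA2 value stayed between −0.24 and −0.14 with any 1 library left out.

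Whether the course over time differed between the ploidies was tested as the difference of the changes. The autotetraploid fell further at 12 h against its control, by a log2 difference of −0.63 ± 0.28 (SE, unadjusted p = 0.0402, adjusted p = 1), and rose further from 12 h to 48 h, by 0.79 ± 0.28 (SE, unadjusted p = 0.0124, adjusted p = 0.725). The changes from control to 6 h and 48 h differed by −0.14 ± 0.28 and 0.16 ± 0.28 (SE, adjusted p = 0.983 and 0.979), and the change from 6 h to 12 h by −0.48 ± 0.28 (SE, adjusted p = 1). No such difference passed for RCA2, and the larger values share the 12 h libraries, so they are not separate evidence. Over all genes edgeR called 0.00387% for the change from 12 h to 48 h and 0.0% for the other 4, which had 945 to 1650 genes at an unadjusted p under 0.05; DESeq2 called 74 to 162 genes in these 4 and limma on FPKM 0.

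RCA2 was always the main activase transcript, and RCA1 and RCA2 did not keep a fixed proportion. Per length, RCA2 supplied 79.1% ± 0.7 of the summed activase FPKM in the diploid controls and 81.1% ± 1.2 in the autotetraploid controls (SD, n = 3). At 6 h its share was 89.4% ± 0.8 and 91.7% ± 1.3, and at 12 h 95.04% ± 0.38 and 94.0% ± 0.3 (SD, n = 3; diploid first). At 48 h it was 77.2% ± 0.5 and 76.8% ± 0.5 (SD, n = 3). In FPKM, RCA2 exceeded RCA1 by 3.8-fold in the diploid controls, 8.46-fold at 6 h, 19.3-fold at 12 h and 3.38-fold at 48 h, and by 4.29-fold, 11.2-fold, 15.7-fold and 3.31-fold in the autotetraploid, as means of 3 libraries.

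The ratio of both genes within a library does not depend on how libraries are scaled. Its SD over the 3 libraries of a group lay between 0.04 and 0.24 log2 units. In the diploid the log2 ratio of RCA1 to RCA2 FPKM stood at −1.99, −1.89 and −1.89 in the controls and at −3.21, −3.06 and −2.96 at 6 h. In the autotetraploid it stood at −2.18, −2.14 and −1.97 in the controls and at −3.62, −3.60 and −3.19 at 6 h. The groups did not overlap in either ploidy, although RCA2 itself overlapped its controls in the diploid. Averaged over the ploidies the log2 ratio differed from the controls by −1.26 at 6 h and −2.11 at 12 h. At 48 h it differed by 0.27, with values of −1.80, −1.74 and −1.73 in the diploid and −1.73, −1.76 and −1.69 in the autotetraploid. Each of these 3 differences had a two-sided p of 0.005 in an exact permutation test that exchanged libraries within each ploidy, the smallest that its 400 arrangements can give, and 0.005 after adjustment over the 3 tests. Every library of each drought time lay on the same side of every control library of its ploidy. That order is what gives the smallest p, so it is not separate support. The share of other gene pairs whose ratio kept such an order was not counted. Whether it is particular to the activase genes was not tested. The p is therefore the same for a difference of 0.27 as for −2.11.

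**Figure D3:**
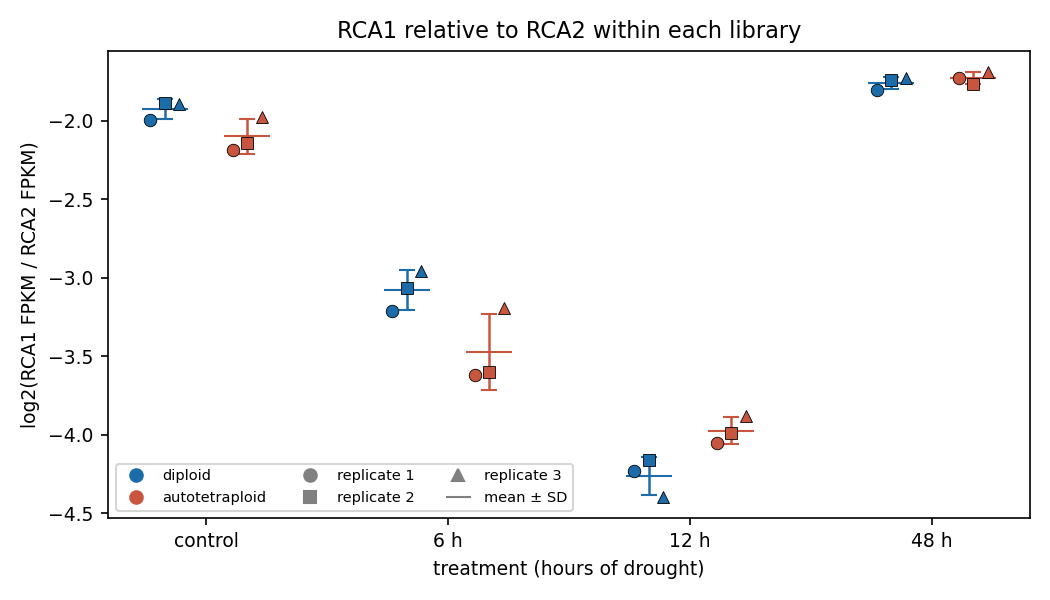
Log2 ratio of RCA1 to RCA2 FPKM (vertical axis) in each library by treatment and ploidy, with the mean ± SD of 3 libraries. The ratio is about −2 in the controls, lower at 6 h, lowest at 12 h (−4.40 to −3.88) and slightly above the controls at 48 h.

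Each gene's own level shows how the ratio moved. At 6 h RCA1 fell, with a mean log2 fold change over both ploidies of −0.85 ± 0.14 (SE, adjusted p = 0.000125), while RCA2 changed by 0.39 in the other direction. That RCA2 change was the weak call described above, and it passed in neither ploidy alone. At 12 h both fell, with log2 fold changes of −4.03 ± 0.16 for RCA1 (SE, adjusted p = 4.21e-13) and −1.93 for RCA2. At 48 h RCA1 was above the controls by 0.58 ± 0.14 (SE, adjusted p = 0.00837), beside 0.30 for RCA2, which did not pass. The 2 genes together gave 6196 ± 1447 FPKM in the diploid controls, 7780 ± 1783 at 6 h, 1857 ± 257 at 12 h and 7452 ± 909 at 48 h (SD, n = 3). In the autotetraploid their sum was 5942 ± 198, 6720 ± 599, 1235 ± 272 and 7976 ± 531 FPKM (SD, n = 3). The sums at 6 h overlapped those of the controls in both ploidies, and the sums at 12 h lay below all of them. RCA2 makes up most of each sum, so the low sums at 12 h are not separate from its own fall. The share of other gene pairs with such an order was not counted.

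Of the carbon fixation and photorespiration genes searched by name, 4 were identified in the count table: RCA2, RCA1, GAPDH (glyceraldehyde-3-phosphate dehydrogenase, a sugar phosphate enzyme with cytosolic and chloroplast forms in plants, not told apart by this name) and catalase, which removes the hydrogen peroxide made in photorespiration. All 4 were lower at 12 h and rose from 12 h to 48 h in both ploidies, where 15.5% (diploid) and 15.6% (autotetraploid) of all genes tested were lower at 12 h and 13.6% and 15.1% rose to 48 h. From 6 h to 12 h the fall, as the mean of both ploidies on the log2 scale, was −0.46 ± 0.053 for GAPDH (SE, adjusted p = 3.95e-06), −0.87 ± 0.091 for catalase (SE, adjusted p = 1.22e-06), −2.31 ± 0.15 for RCA2 and −3.18 ± 0.16 for RCA1 (SE, adjusted p = 3.21e-11). At 6 h against the controls, 1 of the 4 was higher (RCA2, by the weak call of the mean, which most fits with 1 library left out lost). RCA1 and GAPDH (−0.56 ± 0.053, SE, adjusted p = 1.31e-07) were lower, and catalase did not pass (0.042 ± 0.091, SE, adjusted p = 0.77). Of all genes, 18.6% were called higher there and 17.5% lower. At 48 h, RCA1 and catalase (0.58 ± 0.091, SE, adjusted p = 0.000348) were higher, and RCA2 and GAPDH (0.019 ± 0.052, SE, adjusted p = 0.848) did not pass, beside 10.3% of all genes called higher. With 4 genes, among them RCA2 and RCA1 whose falls at 12 h were given above, these counts are a description only.

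The genes with the pattern closest to RCA2 were found as those with the smallest root mean square difference in log2 CPM over the 24 libraries, each gene centred on its own mean, among 16383 genes with at least 5 CPM. The closest was LOC107424075, at 0.173 log2 units, with a mean level of 195 CPM. It stood at 229 ± 36.3 CPM in the diploid controls, 263 ± 52.4 at 6 h, 73.1 ± 11.3 at 12 h and 266 ± 16.7 at 48 h (SD, n = 3). In the autotetraploid it stood at 202 ± 14.4, 209 ± 27.7, 49.7 ± 16.1 and 273 ± 15.3 CPM (SD, n = 3), so it too was lowest at 12 h in both ploidies. Unlike RCA2, its diploid and autotetraploid libraries overlapped at 12 h. LOC107425382, LOC107434135, LOC107423052 and LOC107431688 followed at 0.245, 0.266, 0.275 and 0.283 log2 units. In LOC107434135 all autotetraploid libraries at 12 h lay below all diploid ones, as for RCA2. In LOC107425382, LOC107423052 and LOC107431688 the ploidies overlapped at 12 h. The median gene differed from RCA2 by 1.03, and 25 genes by under 0.4. RCA1 came at rank 5329 with 0.9753 log2 units, catalase at rank 167 with 0.569 and GAPDH at rank 585 with 0.719. This measure grows with differences in the size of a change as well as in its course. Pearson correlation with RCA2 over the 24 libraries, which ignores that size, was 0.921 for RCA1, 0.891 for catalase and 0.750 for GAPDH. For the 5 closest genes it lay between 0.968 and 0.987. The sources used here give the 5 genes no name.

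**Figure D4:**
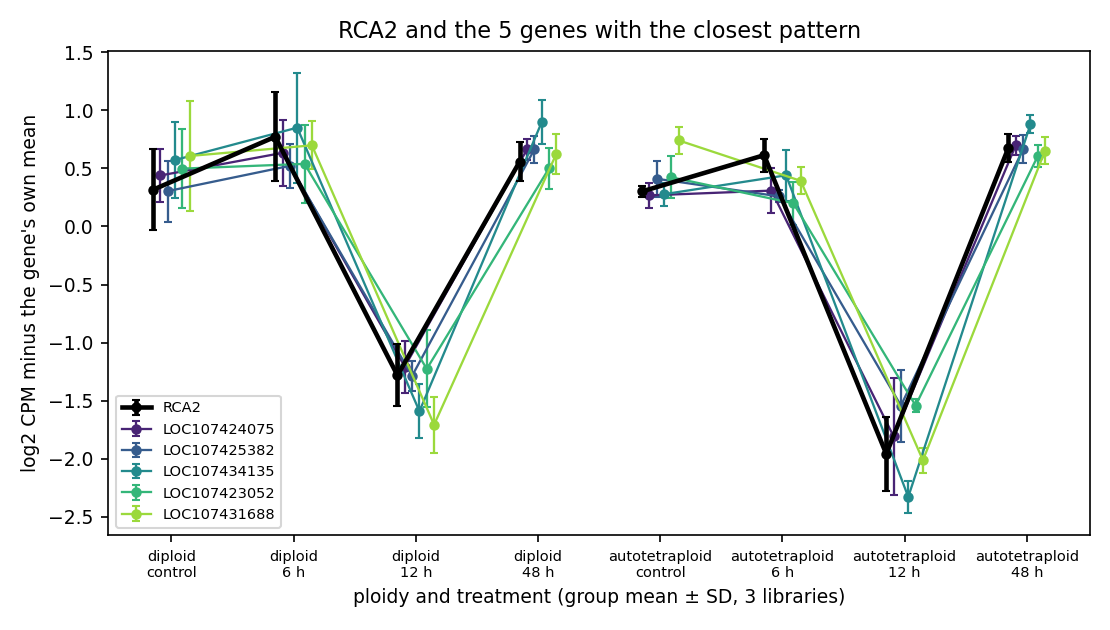
Log2 CPM of RCA2 (black) and of the 5 genes with the closest pattern, each minus its own mean over 24 libraries (vertical axis), as group means ± SD of 3 libraries, by ploidy and treatment. All 6 genes are lowest at 12 h in both ploidies; the genes were chosen for this likeness.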

How the data were processed

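The deposited count table holds raw counts, per the file headers. FPKM values, 1 table per group, were computed by the authors and deposited with the library names as headers; a gene is listed where its highest value in the group is at least 0.1. HISAT2 and StringTie are named in the submitters' processing notes without versions. Build, annotation and strandedness of the counting are not given in the sources used here. RCA2 overlaps no gene in the RefSeq table, but reads that could also match RCA1 may have been counted for either.

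Counts were tested with edgeR 4.0.16 in R 4.3.3: filterByExpr left 25829 genes, TMM scaling, 1 mean per group over all 24 libraries, robust quasi-likelihood test, Benjamini-Hochberg adjustment over all genes, two-sided. SE is the log2 fold change divided by the square root of F. The log2 CPM values for likeness used a prior count of 2. Alternatives were DESeq2 1.42.0, limma 3.58.1 on log2(FPKM + 1), other scalings, no filter, the libraries compared alone, the replicate block and each library left out. RCA1, the pathway names and the rule for the 5 closest genes were chosen with earlier results of these data known. No 2 libraries of a group agreed within sampling noise. Intervals cover the spread between libraries.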

Additional observations from a re-analysis of the deposited data

How the results depend on the processing

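The 25 RCA2 comparisons under the alternative settings gave 502 values, of which 484 kept the direction and the side of the threshold. No called change reversed. Many of these values come from the same fit, so they are not separate re-analyses. The falls to 12 h and the rises to 48 h passed in every setting tried. Without TMM the median gene shifted at 12 h against control by 0.13 in the diploid and 0.17 in the autotetraploid, and by −0.15 and −0.25 from 12 h to 48 h. RCA2 at 12 h was then −1.48 and −2.09 beside −1.61 and −2.24. For the mean of both ploidies that scaling turned 5521 higher and 5684 lower genes at 12 h into 7820 and 4224, 1713 and 2497 from 6 h to 12 h into 4080 and 1734, and 5103 and 5478 from 12 h to 48 h into 3419 and 8531. In models of the compared libraries alone, the autotetraploid change at 6 h passed (0.32, adjusted p = 0.049) and the mean of both ploidies at 6 h did not (0.39). Leaving out 1 library gave 0.29 to 0.49 for the mean at 6 h, 0.27 to 0.67 for the diploid at 6 h and 0.23 to 0.42 for the mean at 48 h. It turned the sign of 4 differences that never passed: −0.18 to 0.17 between the control ploidies, −0.37 to 0.0062 between the ploidies at 6 h, and −0.36 to 0.050 and −0.035 to 0.30 for the difference of the changes at 6 h and 48 h. The cause was not tested. Same-numbered libraries of different groups did not deviate together (mean r of −0.0089 over 84 pairs, 0.0044 for other pairs), and the replicate block, which gave 0.40 for the mean at 6 h, changed no RCA2 call. The ratio tests passed in all 3 times under raw counts, sign flips within replicate numbers and each library left out (−1.33 to −1.23, −2.13 to −2.08 and 0.25 to 0.30). Of the 5 closest genes, 2 stayed among the first 5 by group means or by Pearson correlation, and 5 among the first 20. The share of genes called depends on the tool: DESeq2 called 1827 genes in the diploid at 48 h beside 520, 5006 beside 3490 in the autotetraploid, and 131 beside 5 between the ploidies at 12 h. With 1 library left out, those 3490 calls became 1643 to 3040, the 5 became 1 to 26, the 36 between the ploidies at 48 h became 5 to 45, and the 0 between the controls became up to 59 (without autotetraploid control replicate 3).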

Other observations

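Within groups, the libraries in which RCA2 stood high or low were mostly those of the other activase gene and of catalase. The library with the lowest RCA2 level of its group had the lowest RCA1 level in 8 of 8 groups and the lowest catalase level in 6 of 8. The highest library was the same for RCA1 in 6 groups, for catalase in 6 and for GAPDH in 5, and the lowest was the same for GAPDH in 2. The share of all genes tested that kept such an order was not counted. Whether the shared order is particular to these genes was not tested. The spread of RCA2 between libraries was uneven: the SD of its log2 CPM was 0.35 and 0.38 in the diploid controls and the diploid at 6 h, and 0.045 in the autotetraploid controls, beside medians of 0.26, 0.23 and 0.12 for the 56 genes with a mean of at least 1000 CPM. The length of the RCA2 transcript implied by its counts and FPKM moved between 0.984 and 1.004 times its median over the 24 libraries, including those at 12 h, and RefSeq lists 2 transcripts for the gene.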
